A study of Pyrus communis with 12 samples.

Results

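The basic helix-loop-helix (bHLH) genes of pear were taken as all genes of the deposited expression table whose protein domain name contains “helix-loop-helix”. They numbered 174 of 42760 genes. Of these, 163 carried the name of the helix-loop-helix DNA-binding domain, 9 that of the plant leucine zipper form of the family and 2 that of the leucine zipper form alone. RNA was measured in fruit skins of the European pear (Pyrus communis) cultivar ‘Clapp Favorite’ (‘CF’), whose young fruits are green, and of ‘Red Clapp Favorite’ (‘RCF’), its red-skinned sport. ‘CF1’ and ‘RCF1’ are skins at 2 days after full bloom (DAFB), when fruits of both cultivars were green, and ‘CF2’ and ‘RCF2’ are skins at 5 DAFB, when their colour differed. Each group had 3 libraries, 12 in all, from untreated orchard trees, and all trees stood on Pyrus betulaefolia rootstocks. Each cultivar is a clone, so the comparison of cultivars is between 1 sport and its parent. The methods of the study describe the replicates as independent biological ones, each pooled from the skins of many fruits. They do not say whether these came from separate trees, so P-values measure the spread between such pools.

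bHLH proteins bind DNA as dimers, through a basic stretch of residues followed by a pair of helices joined by a loop. Members that lack a working basic stretch cannot bind DNA themselves and act by pairing with other family members. In plants the family takes part in light signalling, jasmonate response, the formation of stomata, root hairs, vascular tissue and anthers, and iron uptake. In fruit skins it is best known for the complex in which a bHLH protein, a MYB protein and a WD40-repeat protein switch on the genes of anthocyanin and procyanidin (PA) synthesis.

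Values were FPKM, fragments mapped to a gene scaled to gene length and library depth. A gene was tested when it reached an FPKM of 1 in at least 3 libraries. A gene was called when its unadjusted P was under 0.05 and its log2 fold change was at least 1 in size, on the log2(FPKM + 1) scale, in limma. Adjusted P-values (Benjamini-Hochberg) are over all 25707 tested genes.

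Of the 174 bHLH genes, 113 were tested, which is 64.9% of them, against 60.1% of all genes. The 61 others included 16 genes listed at 0 in every library and 45 that were above 0 somewhere, with a highest FPKM of 1.87. No gene entered the test through 1 group alone. Of the tested bHLH genes, 75 reached an FPKM of 1 in all 12 libraries, and 111 carried the helix-loop-helix DNA-binding name. The median of their mean FPKM was 7.33, against 8.32 over all tested genes. The family as a whole took a small and fairly even part of the RNA: 0.249% to 0.307% of the summed FPKM in ‘CF1’, 0.306% to 0.312% in ‘RCF1’, 0.264% to 0.282% in ‘CF2’ and 0.302% to 0.314% in ‘RCF2’. In bulk skins, fewer cells of a type and less RNA per cell cannot be told apart.

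The replicates of ‘CF1’ stood apart from each other. In ‘CF1’ replicate 3, 35 of the 113 bHLH genes (31.0%, against 18.4% of all tested genes) were over 1 log2 unit away from the average of their fellow replicates, and 31 of them were lower. In ‘CF1’ replicate 2 there were 30 such genes (26.5%, against 13.2% of all tested genes), 24 of them higher. In the libraries of the other groups there were 0 to 2, against 0.268% to 0.976% of all tested genes. The Pearson correlation of ‘CF1’ replicate 3 with its partners across all tested genes was 0.911 and 0.844, against 0.964 between replicates 1 and 2 of ‘CF1’ and at least 0.983 within the other groups. Depth relative to ‘CF1’ replicate 1, read from the steps between the lowest FPKM values, was 1.09 for ‘CF1’ replicate 3, 1.33 for ‘CF1’ replicate 2 and 1.1 to 1.58 elsewhere. ‘CF1’ replicate 3 was thus not the shallowest library. Counts against ‘CF1’ are given below with and without this replicate. The same is done for some, not all, of the genes whose call or size it decides.

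Of the 10 most abundant bHLH genes, 7 were called in no comparison and 3 were called between stages or cultivars. PCP011156 had the highest mean FPKM, with 266, 241 and 178 in ‘CF1’, 243, 252 and 216 in ‘RCF1’, 115, 130.2 and 162 in ‘CF2’ and 191, 185 and 194 in ‘RCF2’. Its ‘CF2’ libraries lay below all others, and the difference between ‘RCF2’ and ‘CF2’ was 0.50 on the log2 scale (adjusted P = 0.0485), under the fold threshold. PCP021274 ranked next, at 45.6 in ‘CF1’ replicate 3 and at 152 to 257 in the other 11 libraries. PCP015368 was the steadiest of the abundant genes, at 58.9 to 71.9 in all libraries. PCP032850 lay between 47.7 and 100.7, PCP021193 between 30.5 and 74.2, PCP006099 between 30.8 and 48.9 and PCP044735 between 32.4 and 66.9. These levels are per length and so comparable between genes, and neither PCP011156 and PCP021274, nor PCP032850 and PCP015368, were separated beyond the spread of their libraries. The other 3, PCP001276, PCP011679 and PCP000169, moved with stage or cultivar and are described with those comparisons. Of all 174 genes, 62 reached an FPKM of 10 in some library, 21 in every library and 5 reached 100 in some library. The files and tables used here give no gene name for these abundant members.

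**Figure D1:**
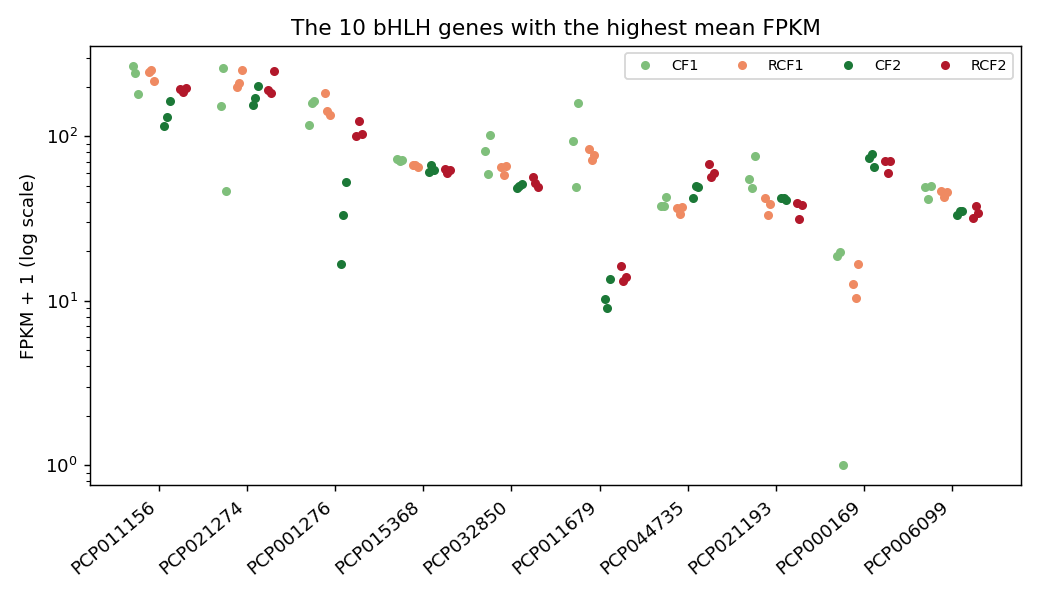
FPKM + 1 on a log axis of the 10 bHLH genes with the highest mean FPKM, 1 point for each of the 12 libraries, coloured by group. PCP011679 falls and PCP000169 rises from 2 to 5 DAFB, PCP001276 is lowest in ‘CF2’, and the point at 1 is PCP000169 in ‘CF1’ replicate 3, listed at 0.

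From 2 to 5 DAFB, bHLH genes moved in both directions in both cultivars. In ‘CF2’ vs. ‘CF1’, 26 of 113 were called (23.0%), 13 higher and 13 lower. The background was 17.1% of all tested genes, 7.23% higher and 9.91% lower. After adjustment 18 bHLH genes remained called, against a background of 12.6%. In ‘RCF2’ vs. ‘RCF1’, 19 were called (16.8%), 9 higher and 10 lower, against 10.3% of all tested genes, 3.54% higher and 6.71% lower. All 19 held after adjustment, where the background was 10.2%. The median log2 fold change of the family was 0.188 in ‘CF’ and 0.009 in ‘RCF’, against 0.159 and 0.02 over all tested genes. Without ‘CF1’ replicate 3, 22 genes were called in ‘CF2’ vs. ‘CF1’, 6 higher and 16 lower, and 18 of them were among the 26. Among all tested genes, 3.29% were called higher without it and 8.67% lower, both below the shares with it. Calls higher thus became fewer in both sets, while calls lower rose in bHLH genes only, from 13 to 16. All 13 bHLH genes called higher with the library had their lowest ‘CF1’ value in it. How many of all tested genes called higher did so was not counted.

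The genes called in the 2 cultivars overlapped. Of the 26 genes called in ‘CF’ and the 19 called in ‘RCF’, 15 were called in both, 7 higher and 8 lower, which is 57.7% of the former and 78.9% of the latter. Over all tested genes these shares were 44.6% and 74.5%. The direction of change was the same in both cultivars for 91 of 113 bHLH genes (80.5%), against 78.8% of all tested genes. These stage comparisons share no library.

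**Figure D2:**
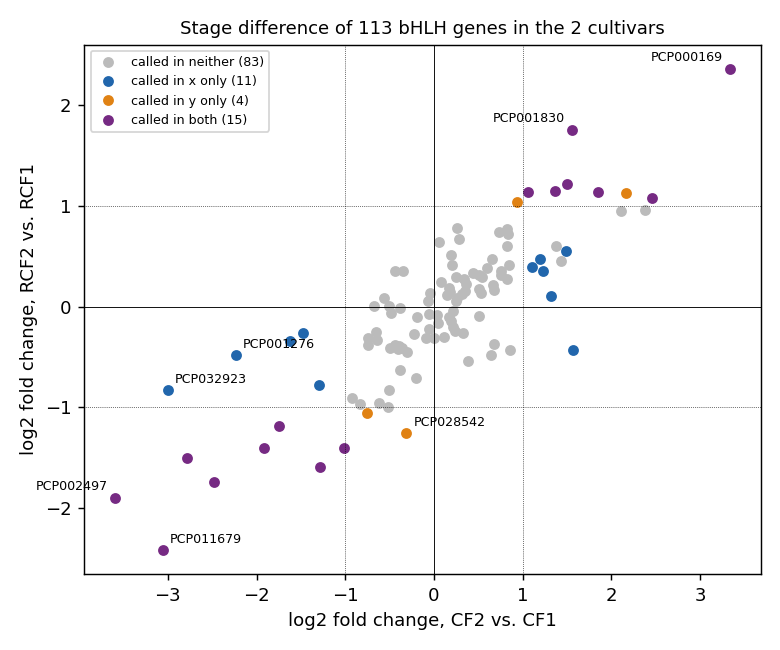
Log2 fold change from 2 to 5 DAFB of the 113 tested bHLH genes in ‘CF’ (x axis) and ‘RCF’ (y axis), with dotted lines at the fold threshold of 1. The 15 genes called in both cultivars lie in the upper right and lower left corners, and PCP001276 and PCP032923 lie far to the left with a smaller change in ‘RCF’.

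The gene with the largest rise in both cultivars was PCP000169. Its FPKM was 17.6, 18.6 and listed at 0 in ‘CF1’, 11.5, 9.39 and 15.7 in ‘RCF1’, 73.1, 76.4 and 64.1 in ‘CF2’ and 69.5, 58.8 and 69.5 in ‘RCF2’. All libraries at 5 DAFB lay above all libraries at 2 DAFB. The log2 fold change was 2.36 ± 0.17 (SE, n = 3 against 3) in ‘RCF’ (limma, adjusted P = 3.73e-05) and 3.33 ± 1.15 in ‘CF’ (adjusted P = 0.0788). In ‘CF’ without replicate 3 of ‘CF1’ it was 1.92 (adjusted P = 0.000917).

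PCP001830 rose from 4.95, 5.54 and 1.29 in ‘CF1’ to 11.1, 13.9 and 11.5 in ‘CF2’. In ‘RCF’ it rose from 1.58, 1.35 and 1.37 to 6.86, 7.46 and 7.36. The groups did not overlap in either cultivar, with log2 fold changes of 1.55 in ‘CF’ (adjusted P = 0.044) and 1.76 in ‘RCF’ (adjusted P = 1.08e-05). PCP016389 rose by 1.50 and 1.22, PCP032938 by 2.45 and 1.08 and PCP028262 by 1.06 and 1.14 in ‘CF’ and ‘RCF’, and the ‘RCF’ change of each held after adjustment. Of these 3, PCP016389 also held in ‘CF’ (adjusted P = 0.0428), while PCP032938 (0.0508) and PCP028262 (0.0694) did not. Without ‘CF1’ replicate 3 the ‘CF’ changes were smaller and less spread, at 1.04 for PCP016389 (adjusted P = 0.00324), 1.62 for PCP032938 (adjusted P = 0.00207) and 0.66 for PCP028262 (adjusted P = 0.00833), the last under the fold threshold. PCP016466 was called in ‘RCF’ (1.12, adjusted P = 0.00598) and not in ‘CF’ (2.17, adjusted P = 0.135), with an FPKM of 0.599 in ‘CF1’ replicate 3 beside 18.6 and 18.2 in its partners. PCP045074 rose in ‘RCF’ from 0.526 to 1.02 up to 2.03 to 3.01 (1.04, adjusted P = 0.00142), and its change in ‘CF’ was 0.94 (adjusted P = 0.0147), just under the fold threshold.

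Of the genes called lower in both cultivars, PCP011679 had the highest mean FPKM. It had an FPKM of 91.8, 48.0 and 158 in ‘CF1’ and 82.7, 70.4 and 75.2 in ‘RCF1’, and fell to 9.26, 8.03 and 12.5 in ‘CF2’ and 15.1, 12.2 and 12.9 in ‘RCF2’. The drop exceeded the spread of the replicates in both cultivars, with log2 fold changes of -3.06 ± 0.43 in ‘CF’ (adjusted P = 0.0115) and -2.42 ± 0.10 in ‘RCF’ (adjusted P = 4.81e-06). PCP027520 fell by 1.92 and 1.41 and PCP032495 by 1.02 and 1.40 in ‘CF’ and ‘RCF’, and all 4 changes held after adjustment. Without ‘CF1’ replicate 3 the change of PCP032495 in ‘CF’ was -0.87 (adjusted P = 0.0168), under the fold threshold. PCP029867 was called in ‘RCF’ (-1.06, adjusted P = 0.000405), while in ‘CF’ its change was -0.76 (adjusted P = 0.0724), or -1.003 without ‘CF1’ replicate 3 (adjusted P = 0.0079). PCP028542 was called in ‘RCF’ (-1.26, adjusted P = 0.000104), and its change in ‘CF’ was -0.31 (adjusted P = 0.596). The interaction was called for neither (-0.30 and -0.95, adjusted P = 0.562 and 0.359).

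**Figure D3:**
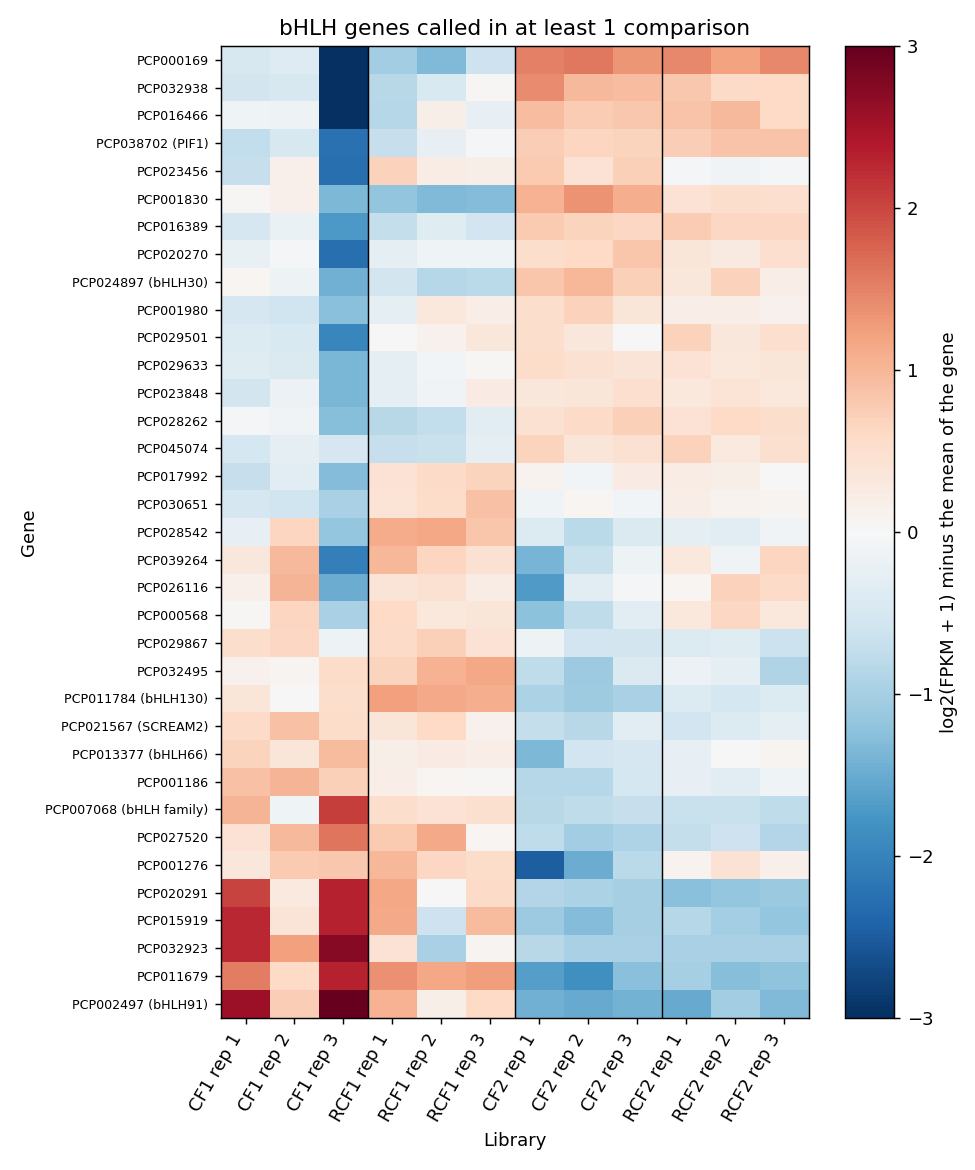
Log2(FPKM + 1) minus the mean of the gene (colour) for the 35 bHLH genes called in at least 1 of the 4 pairwise comparisons (rows, ordered by their change in ‘CF’) in the 12 libraries (columns). The upper genes are low at 2 DAFB, lowest in ‘CF1’ replicate 3, and the lower genes are low at 5 DAFB.

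A supplementary list of differentially expressed transcription factors names 8 members of the family. It was drawn from these same libraries, so it is no independent evidence of direction. PIF1 (PCP038702), whose Arabidopsis namesake is a phytochrome-interacting factor that holds back seed germination in the dark, had an FPKM of 1.94, 2.50 and 0.036 in ‘CF1’ and 2.06, 3.12 and 3.72 in ‘RCF1’. At 5 DAFB it stood at 7.27, 6.70 and 6.83 in ‘CF2’ and 7.15, 7.84 and 7.84 in ‘RCF2’, above every library of 2 DAFB. Its log2 fold change was 1.85 ± 0.46 in ‘CF’ (adjusted P = 0.0381) and 1.14 ± 0.15 in ‘RCF’ (adjusted P = 0.000788). Without ‘CF1’ replicate 3 the change of PIF1 in ‘CF’ was 1.31 (adjusted P = 0.00179). bHLH30 (PCP024897), in Arabidopsis a partner of LONESOME HIGHWAY in vascular development, rose from 1.33 to 5.53 up to 9.40 to 11.5 in ‘CF’ and from 2.48 to 3.30 up to 6.19 to 9.19 in ‘RCF’. The change was 1.36 (adjusted P = 0.0543) and 1.15 (adjusted P = 0.000645), and without ‘CF1’ replicate 3 the change in ‘CF’ was 0.90 (adjusted P = 0.00508), under the fold threshold.

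bHLH130 (PCP011784), which in Arabidopsis is an activator of the flowering gene CONSTANS, fell with stage and was higher in the red cultivar. It had an FPKM of 9.54, 7.19 and 10.7 in ‘CF1’, 18.2, 17.1 and 16.4 in ‘RCF1’, 3.26, 2.94 and 3.15 in ‘CF2’ and 5.23, 4.68 and 5.20 in ‘RCF2’. The stage changes were -1.29 in ‘CF’ (adjusted P = 0.0101) and -1.60 in ‘RCF’ (adjusted P = 9.92e-06). The cultivar differences, 0.86 at 2 DAFB (adjusted P = 0.159) and 0.55 at 5 DAFB (adjusted P = 0.0145), were under the fold threshold, although the libraries of the cultivars did not overlap at either stage.

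SCREAM2 (PCP021567), in Arabidopsis a partner of the proteins that direct the formation of stomata, fell from 7.91 to 10.2 in ‘CF1’ to 2.41 to 3.84 in ‘CF2’ (-1.29, adjusted P = 0.0119). In ‘RCF’ its change of -0.78 was under the fold threshold (adjusted P = 0.00269). bHLH66 (PCP013377), which promotes root hair growth in Arabidopsis, fell in ‘CF’ from 39.5, 31.7 and 48.1 to 8.93, 16.1 and 16.8 (-1.48, adjusted P = 0.0209). In ‘RCF’ it went from 27.9, 29.4 and 28.02 to 20.4, 24.4 and 26.1, a change of -0.26 that did not pass. The PRE6-like gene (PCP003987), whose Arabidopsis relatives lack DNA binding and act by pairing with other members, was not called in any comparison, but its libraries of ‘RCF2’ (10.96 to 11.8) lay below those of ‘CF2’ (16.7 to 20.0), a difference of -0.63 (adjusted P = 0.0107). In ‘CF1’ it was at 16.0, 13.4 and, in replicate 3, 0.603.

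bHLH91 (PCP002497), which acts in anther development in Arabidopsis, was nearly gone at 5 DAFB. Its FPKM was 20.4, 5.06 and 30.2 in ‘CF1’, 6.49, 3.07 and 4.46 in ‘RCF1’ and 0.262 to 0.757 in the 6 libraries of 5 DAFB. The log2 fold change was -3.60 ± 0.59 in ‘CF’ (adjusted P = 0.0154) and -1.90 ± 0.23 in ‘RCF’ (adjusted P = 0.000433). The eighth gene, PCP007068, listed as a bHLH family protein, had the same shape at a lower level, at 2.80, 0.725 and 6.87 in ‘CF1’, 1.54 to 1.73 in ‘RCF1’ and 0.063 to 0.186 at 5 DAFB. PCP015919 and PCP020291 fell likewise, by 2.78 and 2.48 in ‘CF’ and by 1.50 and 1.75 in ‘RCF’, and all 4 changes held after adjustment.

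Beside these genes, LIM1, an anther lipid transfer protein gene in other plants, had an FPKM of 24.6, 8.74 and 36.6 in ‘CF1’, 8.495, 4.17 and 8.67 in ‘RCF1’ and 1.66 to 2.94 at 5 DAFB. Of the 13 bHLH genes called lower in ‘CF’, 9 had their lowest ‘CF1’ value in replicate 2, as LIM1 did. How many of all tested genes called lower did so was not counted. Across all tested genes, ‘CF1’ replicate 2 correlated with the ‘CF2’ libraries by 0.897 to 0.916. The values were 0.847 to 0.863 for replicate 1 and 0.663 to 0.678 for replicate 3. The summed FPKM of the 33 genes with a pollen allergen domain, 4 of them at 0 throughout, ranged from 2996 to 3366 in ‘CF1’, 2984 to 3570 in ‘RCF1’, 3557 to 3629 in ‘CF2’ and 3348 to 3560 in ‘RCF2’, and the 1 gene with a male sterility domain was at 0 throughout. Genes entered the pollen list by domain name alone, so that list need not hold pollen genes only. The part of other flower tissue in these values was not tested.

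**Figure D4:**
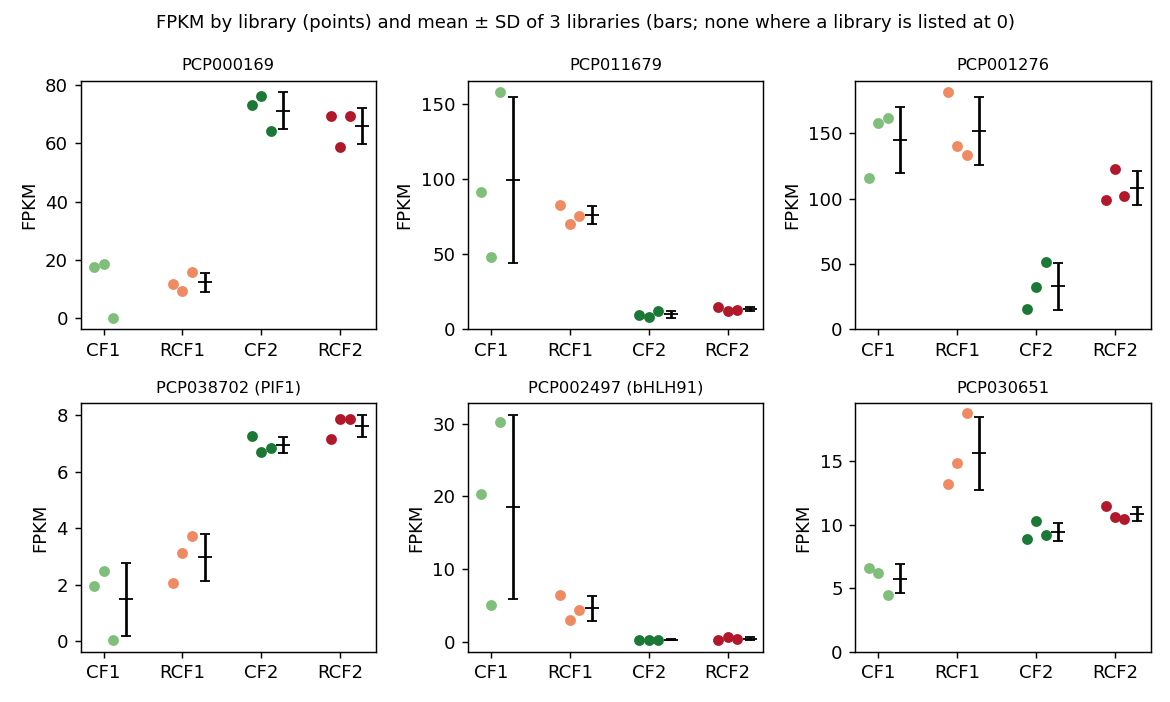
FPKM of 6 bHLH genes in the 3 libraries of each group (points), with mean ± SD (bars, none where a library is listed at 0). PCP000169 and PIF1 are high at 5 DAFB, PCP011679 and bHLH91 are low there, PCP001276 is low in ‘CF2’, and PCP030651 is high in ‘RCF1’.

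The skin marker genes moved with stage as well. The summed FPKM of WIN1 and SHINE2 genes, 3 genes whose Arabidopsis namesakes govern the cuticle, was 19.9, 26.8 and 4.74 in ‘CF1’, 15.8 to 22.0 in ‘RCF1’, 66.7 to 75.2 in ‘CF2’ and 41.6 to 51.8 in ‘RCF2’. The sum was lowest in ‘CF1’ replicate 3, where WIN1 was listed at 0. The 54 genes with a chlorophyll a/b binding domain, 7 of them at 0 throughout, summed to 3831 to 4829 in ‘CF1’, 2755 to 3472 in ‘RCF1’, 4927 to 5450 in ‘CF2’ and 3496 to 3991 in ‘RCF2’. Their part in the stage and cultivar differences of bHLH genes was not tested.

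Between the cultivars at 2 DAFB, few bHLH genes differed. In ‘RCF1’ vs. ‘CF1’, 6 of 113 were called (5.31%), 4 higher and 2 lower in ‘RCF1’, against 2.89% of all tested genes, 1.02% higher and 1.87% lower. None held after adjustment, where the background was 0.0233%. An unadjusted P under 0.05 was found for 19 of 113 bHLH genes, against 4007 of the 25707 tested genes. With array weights, which give less weight to libraries far from their group, 12 bHLH genes were called and all 12 held after adjustment. With a single fit of all 12 libraries 3 held. Of all tested genes, 5.53% were called with array weights and 4.54% with the single fit. The median log2 fold change was 0.191, against 0.115 over all tested genes. Rescaling to TPM gave 5 bHLH genes higher and 1 lower, where 3.49% of all tested genes were called. Without ‘CF1’ replicate 3, 4 genes were called, 3 of them among the 6, and 1 held after adjustment. Without ‘CF1’ replicate 2 there were 18. The share of all tested genes called in these settings was 2.05% and 9.18%. Counts of all tested genes after adjustment were not made for these alternatives.

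PCP030651 had an FPKM of 6.63, 6.198 and 4.47 in ‘CF1’ and of 13.3, 14.9 and 18.9 in ‘RCF1’. PCP017992 had 5.23, 7.06 and 3.13 in ‘CF1’ and 12.7, 14.1 and 15.0 in ‘RCF1’. In both genes every ‘RCF1’ library lay above every ‘CF1’ library. The log2 differences were 1.301 ± 0.19 (adjusted P = 0.119) and 1.33 ± 0.25 (adjusted P = 0.159), and without ‘CF1’ replicate 3 they were 1.15 and 1.07 (adjusted P = 0.0565 for each). PCP028542 (1.28, adjusted P = 0.294) and PCP029501 (1.11, adjusted P = 0.316) were called higher with that library and not without it. The call of PCP028542 was also lost without ‘CF1’ replicate 1.

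The genes lower in ‘RCF1’ were PCP032923 and bHLH91. PCP032923 had an FPKM of 8.41, 3.61 and 12.04 in ‘CF1’ and of 1.68, 0 and 1.09 in ‘RCF1’. At 5 DAFB it was at 0.101 in 1 library of ‘CF2’ and listed at 0 in the other 5. Its log2 difference at 2 DAFB was -2.22 ± 0.51 (adjusted P = 0.212). That of bHLH91 was -1.53 ± 0.63 (adjusted P = 0.321), with libraries that overlapped. Its call was lost without ‘CF1’ replicate 1 and also without ‘CF1’ replicate 3. PCP001830 was called only without ‘CF1’ replicate 3 (-1.36, adjusted P = 0.0265), since its value there lay at the level of ‘RCF1’.

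At 5 DAFB, when the fruits differed in colour, 4 of 113 bHLH genes were called in ‘RCF2’ vs. ‘CF2’ (3.54%), all higher in ‘RCF2’, and 2 held after adjustment. The adjusted count dropped to 0 when any of 3 libraries was left out, namely replicate 2 of ‘CF2’ and replicates 1 and 3 of ‘RCF2’. Of all tested genes 1.26% were called, 0.902% higher and 0.358% lower, and 1.07% after adjustment. The median difference was 0.03 against -0.01 over all tested genes. An unadjusted P under 0.05 was found for 45 of 113 bHLH genes, against 6267 of the 25707 tested genes. Rescaling to TPM gave 6 bHLH genes higher and 1 lower, where 1.71% of all tested genes were called. No bHLH gene was called between the cultivars at both stages, and 0.187% of all tested genes were.

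PCP001276 showed the largest difference between the cultivars at this stage. Its FPKM was 15.6, 32.2 and 51.5 in ‘CF2’ and 99.1, 122.8 and 102 in ‘RCF2’, so that no library overlapped. The log2 difference was 1.82 ± 0.37 (adjusted P = 0.0296). At 2 DAFB the cultivars were alike in range, at 116, 158 and 162 in ‘CF1’ and 182, 140.2 and 134 in ‘RCF1’, with a difference of 0.07 ± 0.20. The gene fell by 2.24 in ‘CF’ (adjusted P = 0.0213) and by 0.48 in ‘RCF’ (adjusted P = 0.021), the latter under the fold threshold. Without ‘CF2’ replicate 1, its lowest library, the difference at 5 DAFB was 1.38 (adjusted P = 0.0331).

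PCP000568 had an FPKM of 8.03, 11.5 and 16.0 in ‘CF2’ and of 25.5, 31.4 and 25.5 in ‘RCF2’, a log2 difference of 1.19 ± 0.22 (adjusted P = 0.0225). Its change in ‘RCF’ from 2 to 5 DAFB was 0.00 ± 0.11, and that in ‘CF’ was -0.67 ± 0.45, which did not pass. Without ‘CF1’ replicate 3 it was -1.11 in ‘CF’ (adjusted P = 0.0315), and the interaction was 1.11 (adjusted P = 0.125). PCP026116 (1.12, adjusted P = 0.148) and PCP039264 (1.03, adjusted P = 0.0943) were higher in every ‘RCF2’ library than in any of ‘CF2’, but did not hold after adjustment. In all 4 of these genes ‘CF2’ replicate 1 had the lowest value, and without it PCP001276 alone was called. PCP000568 then differed by 0.96.

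**Figure D5:**
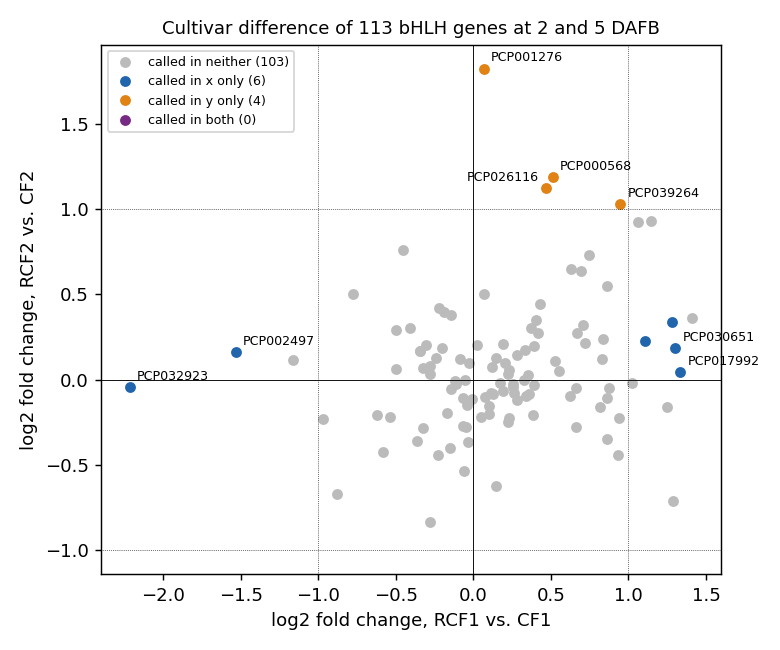
Log2 difference between ‘RCF’ and ‘CF’ of the 113 tested bHLH genes at 2 DAFB (x axis) and 5 DAFB (y axis), with dotted lines at the fold threshold of 1. The 6 genes called at 2 DAFB and the 4 called at 5 DAFB are different genes, and PCP001276 stands highest.

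The change from 2 to 5 DAFB was compared between the cultivars directly, as an interaction over all 12 libraries. It was called for 9 bHLH genes (7.96%), 5 with a higher and 4 with a lower change in ‘RCF’, against 3.96% of all tested genes, 2.59% higher and 1.37% lower. None held after adjustment in limma. An unadjusted P under 0.05 was found for 19 of 113 bHLH genes, against 4061 of the 25707 tested genes. Without ‘CF1’ replicate 3, 2 of 9 called genes held, and without ‘CF1’ replicate 2, 13 of 22, in settings where 2.79% and 11.2% of all tested genes were called. The share of all tested genes that held in these settings was not counted. Of the 9 genes, those with the lowest adjusted P were PCP001186 (adjusted P = 0.0657), which fell in ‘CF’ from 2.54 to 3.38 down to 0.183 to 0.495 and lay at 1.21 to 1.48 and 0.706 to 0.948 in ‘RCF’, and PCP030651 (adjusted P = 0.0954). For PCP001276 the difference in stage change was 1.76 ± 0.48 (adjusted P = 0.171). Across the 4 pairwise comparisons, 35 bHLH genes were called at least once and 78 in none. Of the 35, 25 were called only between stages, 5 only between cultivars and 5 in both kinds. These counts were not made over all tested genes, so they have no background share. Every cultivar comparison shares a group with each stage comparison, so calls in both kinds are not independent.

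A set of flavonoid pathway genes and of MYB and other regulators, none of them bHLH members, was mostly higher at 5 DAFB. Whether these genes act with bHLH proteins here was not tested. They were taken from a selection made in the study on these same libraries, which is no independent evidence of direction. Of 18 tested genes, for MYB and other regulators, enzymes and a glutathione S-transferase, 13 were called higher in ‘CF2’ vs. ‘CF1’ and 13 in ‘RCF2’ vs. ‘RCF1’, and none lower. Of all tested genes 7.23% and 3.54% were called higher in these comparisons. Some of the 13 called in ‘CF2’ vs. ‘CF1’, namely CPC, ETC1 and GLABRA2, were regulators not chosen as flavonoid genes. The count of this set in ‘CF2’ vs. ‘CF1’ was also 13 without ‘CF1’ replicate 3. Between the cultivars 3 were called at 2 DAFB and 2 at 5 DAFB. MYB114, an anthocyanin activator, was called higher in ‘RCF’ at both stages, with log2 differences of 1.83 (adjusted P = 0.0425) and 2.43 (adjusted P = 0.00107). So was the glutathione S-transferase gene GSTF12, with 5.04 (adjusted P = 0.0228) and 4.49 (adjusted P = 3.13e-05). The other gene called at 2 DAFB, chalcone synthase (CHS), was lower in ‘RCF1’ (-2.27, adjusted P = 0.117). Another 44 genes, 33 of them tested, carry the name of the N-terminal domain that MYC-type bHLH proteins use to meet MYB proteins. The table gives each gene 1 domain name, so bHLH proteins named for that domain are not among the 174. Of the 33, 10 were called higher in ‘CF2’ vs. ‘CF1’ and 6 in ‘RCF2’ vs. ‘RCF1’, none lower, and none between the cultivars at either stage, where the background of higher calls was 7.23% and 3.54% for the stages. After adjustment 6 held in each cultivar, and without ‘CF1’ replicate 3 there were 5 in ‘CF’, all of which held. Their median log2 fold change was 0.704 in ‘CF’ and 0.527 in ‘RCF’.

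The 174 bHLH genes were spread over 160 scaffolds of the assembly the table uses. Their median span was 2436.5 bp, against 2135 bp for all genes. Of 14 pairs of neighbours on a scaffold, 5 had both genes tested. The closest of these was PCP039264, called at 5 DAFB, with PCP007285, which lies 14675 bp away on the same strand with 0 genes between them. The spans of PCP006165 and PCP032937 overlap on the same strand, and neither gene was tested. Exon positions were not used, so whether these genes share reads is not known.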

How the data were processed

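The authors made 12 RNA-seq libraries from fruit skins, 3 for each of ‘CF1’, ‘RCF1’, ‘CF2’ and ‘RCF2’. Per the labels, the deposited table holds FPKM per gene with a domain name and a scaffold position; the submitters' processing notes name Trimmomatic 0.38, HISAT2 2.1.0, StringTie 1.3.4d and DESeq2 without roles. The paper names an apple genome as mapping reference, while the table lists PCP identifiers, and the build is not given in the sources used here. Read counts were not used here, so no count model was run. The study lists reads for each library, which are not printed here; without counts per gene the precision of a value could not be computed, and low FPKM rests on few fragments.

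Values entered limma 3.58.1 (R 4.3.3; lmFit, eBayes with trend, two-sided) as log2(FPKM + 1), for the 25707 genes that reached an FPKM of 1 in 3 libraries or more. Each pairwise comparison used its own 6 libraries and the interaction all 12. The pipeline was tested on simulated data with the spread of ‘RCF2’ and ‘CF2’ alone. The wider spread of ‘CF1’ was not simulated, so that test does not bear on comparisons with ‘CF1’. An exact permutation test of 3 against 3 cannot go below 0.1 and was not used. Genes named are the 10 with the highest mean FPKM, the 4 largest and 4 smallest called changes of each comparison, the 8 members named in a supplementary list, and those with a cultivar or interaction call after adjustment; PCP001186, PCP001980, PCP016466, PCP027520, PCP028262, PCP029867, PCP032495, PCP045074 and the members of neighbouring pairs were added after their values were seen. The members, lists and tests were chosen with earlier results of these data known. The chlorophyll domain name was widened after the first matched 0 genes. Names come from the table and supplementary tables; no PCP identifier occurs among the 42167 RefSeq genes provided, and no sequence is shown. Tables were read with Python 3.11.15, pandas 2.3.3 and numpy 2.4.6 and drawn with matplotlib 3.10.9. Alternatives were a pseudocount of 0.1, no filter, TPM, quantile normalization, a single fit, array weights, a replicate block and each library left out.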

Additional observations from a re-analysis of the deposited data

Results flagged for a closer look

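The stage change of 9 bHLH genes differed between ‘CF’ and ‘RCF’ by the interaction test at an unadjusted P under 0.05 and a log2 difference of at least 1 in size. None passed after adjustment over all tested genes (limma) with all 12 libraries. The change was higher in ‘RCF’, that is less of a drop or more of a rise, by 2.17 for PCP032923 (adjusted P = 0.146), 1.76 for PCP001276 (adjusted P = 0.171), 1.70 for bHLH91 (PCP002497; adjusted P = 0.289), 1.28 for PCP001186 (adjusted P = 0.0657) and 1.21 for bHLH66 (PCP013377; adjusted P = 0.147). All 5 fell in ‘CF’.

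It was lower in ‘RCF’ for the other 4, with differences of -1.999 for PCP023456 (adjusted P = 0.225), -1.29 for PCP017992 (adjusted P = 0.122), -1.21 for PCP001980 (adjusted P = 0.137) and -1.12 for PCP030651 (adjusted P = 0.0954). Each of these 4 had its lowest ‘CF1’ value in replicate 3. Without that library, 9 genes were again called, 6 of them among these, and 2 held after adjustment, PCP001186 (1.36, adjusted P = 0.0133) and PCP017992 (-1.03, adjusted P = 0.0371). PCP030651 (-0.97, adjusted P = 0.0354) and PCP001980 (-0.97, adjusted P = 0.0592) then missed the fold threshold by little, and bHLH91 (1.21, adjusted P = 0.298) missed the P threshold. Without ‘CF1’ replicate 2, 13 bHLH genes held after adjustment, among them bHLH91 (2.39, adjusted P = 0.00753), PCP017992 (-1.51, adjusted P = 0.00846), PCP032923 (2.59, adjusted P = 0.0107), PCP023456 (-2.54, adjusted P = 0.0144), PCP030651 (-1.17, adjusted P = 0.0145) and bHLH66 (1.36, adjusted P = 0.0228). In that setting 11.2% of all tested genes were called. The share of all tested genes that held after adjustment was not counted there, so the 13 have no background.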

How the results depend on the processing

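The 48 called values of named genes kept their direction under all alternatives run: of 659 values, 593 were still called, 66 were not and none reversed. The counts of called bHLH genes moved more. In ‘RCF1’ vs. ‘CF1’ (6 called) the count was 0 with the adjusted P as threshold and 12 with array weights (all holding after adjustment), and 3 to 18 with a library left out. In ‘RCF2’ vs. ‘CF2’ (4 called) it was 2 with the adjusted P, 2 with a single fit of all 12 libraries, 10 with a pseudocount of 0.1 and 7 in TPM, and 1 to 6 with a library left out. Of all tested genes, 5.53% were called in ‘RCF1’ vs. ‘CF1’ with array weights. In ‘RCF2’ vs. ‘CF2’ these shares were 1.04% with the single fit, 2.66% with the pseudocount of 0.1 and 1.71% in TPM. Adjusted counts under the alternatives were made for bHLH genes only, so they have no background share. In the interaction (9 called) the count of bHLH genes was 0 with the adjusted P and 7 to 22 with a library left out. The stage counts were steadier, at 20 to 35 in ‘CF2’ vs. ‘CF1’ and 15 to 23 in ‘RCF2’ vs. ‘RCF1’ with a library left out. However, the adjusted count in ‘CF2’ vs. ‘CF1’ was 0 when replicate 1 or replicate 2 of ‘CF2’ was left out, 5 when replicate 3 of ‘CF2’ was, and 7 when replicate 1 of ‘CF1’ was. The cause of these differences was not tested. Rescaling to TPM moved the median of all tested genes in ‘CF2’ vs. ‘CF1’ from 0.159 to 0.262. With the replicate block the counts were 6 (5 of them the same genes; 3 higher and 3 lower), 4, 19, 26 (25 the same) and 9, and 12 in place of 18 genes held after adjustment in ‘CF2’ vs. ‘CF1’. In their deviations from the group means, same-numbered libraries of the cultivars correlated by -0.179, 0.335 and -0.0423 at 2 DAFB and by 0.145, 0.203 and 0.0475 at 5 DAFB. At 5 DAFB all libraries but 1 correlated best with their own number, and the labels give the numbers no shared origin.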
